A study of Homo sapiens with 22 samples.

Results

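The HOX cluster genes are the 39 genes of the HOXA, HOXB, HOXC and HOXD clusters, chosen by symbol alone (HOX, a cluster letter and a number, with antisense and pseudogene symbols left out) from the 35237 rows of the count table. They were followed in 22 RNA-seq libraries from a pair of human neuroblastoma lines in long-term culture, SK-N-AS and GIMEN, both named as mesenchymal in the labels. PP121 is an inhibitor of tyrosine kinases and phosphoinositide kinases, and bufalin is a cardiac glycoside that inhibits the sodium pump. Untreated SK-N-AS cells grew in DMEM with 10% fetal bovine serum (n = 4). In S1D4 they had received 5 µM PP121 in the same medium with 1% serum for 4 days (n = 4). S1D4 cells then received 5 µM PP121 and 100 nM bufalin in Neurobasal medium with B27 supplement for 4 days, which gave the group S2D4 (n = 4), or for 30 days, which gave S2D30 (n = 4). Untreated GIMEN cells grew in RPMI with 10% serum (n = 3), and GIMEN D30 cells had received 2.5 µM PP121 and 10 nM bufalin in RPMI with 1% serum for 30 days (n = 3). Serum, medium and drug changed together within a line, and drug doses and media differed between the lines, so their parts cannot be told apart.

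HOX genes encode homeodomain transcription factors that give cells of the trunk their position along the head to tail axis. Within a cluster, genes with low paralog numbers are used in the hindbrain and neck, middle numbers in the trunk, and high numbers towards the tail and in the limbs, and sets of paralogs form a code that adult and cultured cells often keep. In the nervous system the code sets which motor and sympathetic neurons form at each level of the cord. Neuroblastoma comes from the sympathetic lineage, and HOXC9 in particular has been linked to neuronal differentiation of neuroblastoma cells.

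Promoter windows are shown for the genes on which the results turn: HOXD8, one of the pair with the highest levels in both lines, HOXD3, among the members that fell most in SK-N-AS, HOXC4 and HOXC5, which set the lines apart and share 1 window, and HOXD10 and HOXD11, which were expressed in GIMEN and not in SK-N-AS. Each window is RefSeq sequence of GRCh38.p14, from 250 bases before to 50 bases after the annotated start, written 5′ to 3′ on the gene's strand. Windows were matched by symbol for 20 of the 39 genes. The build behind the counts is not given in the sources used here, so the windows identify the genes and were not joined to the counts by coordinate. Capitals mark matches, on either strand, to CCAAT (read as ATTGG on the other strand), TGATNNAT (a site form of HOX with PBX proteins), TGACAG (a site form of MEIS proteins) or TATAAA.

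HOXC4 and HOXC5, chr12:54016638-54016937, plus strand: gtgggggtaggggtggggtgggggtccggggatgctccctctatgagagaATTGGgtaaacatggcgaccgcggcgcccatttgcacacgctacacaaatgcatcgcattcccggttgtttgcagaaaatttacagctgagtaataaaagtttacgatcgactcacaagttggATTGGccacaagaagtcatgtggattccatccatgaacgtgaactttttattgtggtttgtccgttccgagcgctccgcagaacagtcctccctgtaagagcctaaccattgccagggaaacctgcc

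HOXD3, chr2:176157057-176157356, plus strand: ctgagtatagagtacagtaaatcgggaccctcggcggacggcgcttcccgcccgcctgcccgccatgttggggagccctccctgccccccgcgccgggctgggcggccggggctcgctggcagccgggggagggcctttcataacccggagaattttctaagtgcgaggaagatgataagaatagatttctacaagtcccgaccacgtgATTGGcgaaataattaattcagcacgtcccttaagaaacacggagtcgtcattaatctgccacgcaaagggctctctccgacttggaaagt

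HOXD8, chr2:176129455-176129754, plus strand: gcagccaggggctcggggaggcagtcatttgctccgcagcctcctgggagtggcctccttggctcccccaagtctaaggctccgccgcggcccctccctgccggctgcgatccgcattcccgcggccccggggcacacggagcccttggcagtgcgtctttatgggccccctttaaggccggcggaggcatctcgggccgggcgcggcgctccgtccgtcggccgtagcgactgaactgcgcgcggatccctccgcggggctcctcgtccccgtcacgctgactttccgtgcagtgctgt

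HOXD10, chr2:176116528-176116827, plus strand: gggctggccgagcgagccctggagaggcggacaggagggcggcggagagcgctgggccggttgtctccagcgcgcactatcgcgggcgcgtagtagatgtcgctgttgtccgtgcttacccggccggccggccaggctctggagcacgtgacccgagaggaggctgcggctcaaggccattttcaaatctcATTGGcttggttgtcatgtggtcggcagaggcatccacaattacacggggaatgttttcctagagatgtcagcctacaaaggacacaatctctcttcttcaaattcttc

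HOXD11, chr2:176107030-176107329, plus strand: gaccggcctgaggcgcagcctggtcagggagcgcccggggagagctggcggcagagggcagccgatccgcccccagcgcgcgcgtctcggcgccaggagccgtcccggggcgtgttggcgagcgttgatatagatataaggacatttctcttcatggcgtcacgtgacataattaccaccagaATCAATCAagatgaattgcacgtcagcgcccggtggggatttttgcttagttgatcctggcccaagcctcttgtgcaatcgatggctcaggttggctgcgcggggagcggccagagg

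No match to any of the 4 motifs lay in the HOXD8 window. CCAAT was found in 17 of the 20 HOX windows (85%), with HOXC4 and HOXC5 counted separately, against 34.6% of 35114 RefSeq windows of the same length. TGATNNAT was found in 3 (15%, against 7.4%), HOXD11 among them, TGACAG in 4 (20%, against 15.8%), HOXD4 among them, and TATAAA in 4 (20%, against 11.5%). Matches of different motifs did not overlap in the windows shown. The HOX windows had a median of 22.5 CpG dinucleotides against 14 for all windows, and the HOXD8 window had 34. A match is a run of letters and was not tested as a binding site.

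Counts per library summed to between 16456484 and 37506800, of which the 39 HOX genes took between 1051 and 8648. All 22 libraries were scaled together for the values in CPM, counts scaled to a common library size. The fourth S2D4 library stood apart from the other 3 for several HOX genes, and some results that rest on it are given with and without it. The mesenchymal label was checked on 10 mesenchymal and 10 adrenergic marker genes. Untreated SK-N-AS cells had all 10 of each list above 1 CPM, so their adrenergic markers go against a purely mesenchymal label. In untreated GIMEN cells the adrenergic factors PHOX2A and TFAP2B and the gene DLK1 were at the detection floor (at most 3 counts in every library), and so was PRRX2 of the mesenchymal list. The labels do not say whether replicates were separate cultures, so p-values measure the spread between these libraries.

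HOX message in these lines was nearly all from the HOXC and HOXD clusters. A gene was called expressed in a group when every library reached 1 CPM. Untreated SK-N-AS cells expressed 9 of the 39 genes, which were HOXC4, HOXC5, HOXC6, HOXC9, HOXD1, HOXD3, HOXD4, HOXD8 and HOXD9. Untreated GIMEN cells expressed 7, which were HOXC6, HOXD3, HOXD4, HOXD8, HOXD9, HOXD10 and HOXD11. No HOXA and no HOXB gene was expressed in any of the 6 groups. The 11 HOXA genes together summed to 0.554 ± 0.297 CPM (SD, n = 4) in untreated SK-N-AS cells and to 0.0377 ± 0.0653 CPM (n = 3) in untreated GIMEN cells. The 10 HOXB genes summed to 2.55 ± 0.811 CPM and 0.0671 ± 0.0582 CPM. The 9 HOXC genes summed to 38.3 ± 2.75 CPM and 7.21 ± 1.47 CPM, and the 9 HOXD genes to 169 ± 11.2 CPM and 51.5 ± 3.06 CPM. In untreated GIMEN cells 23 members had no count at all in the 3 libraries, and in GIMEN D30 cells 22, whereas 2 members, HOXB1 and HOXD12, had none in untreated SK-N-AS cells.

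**Figure D1:**
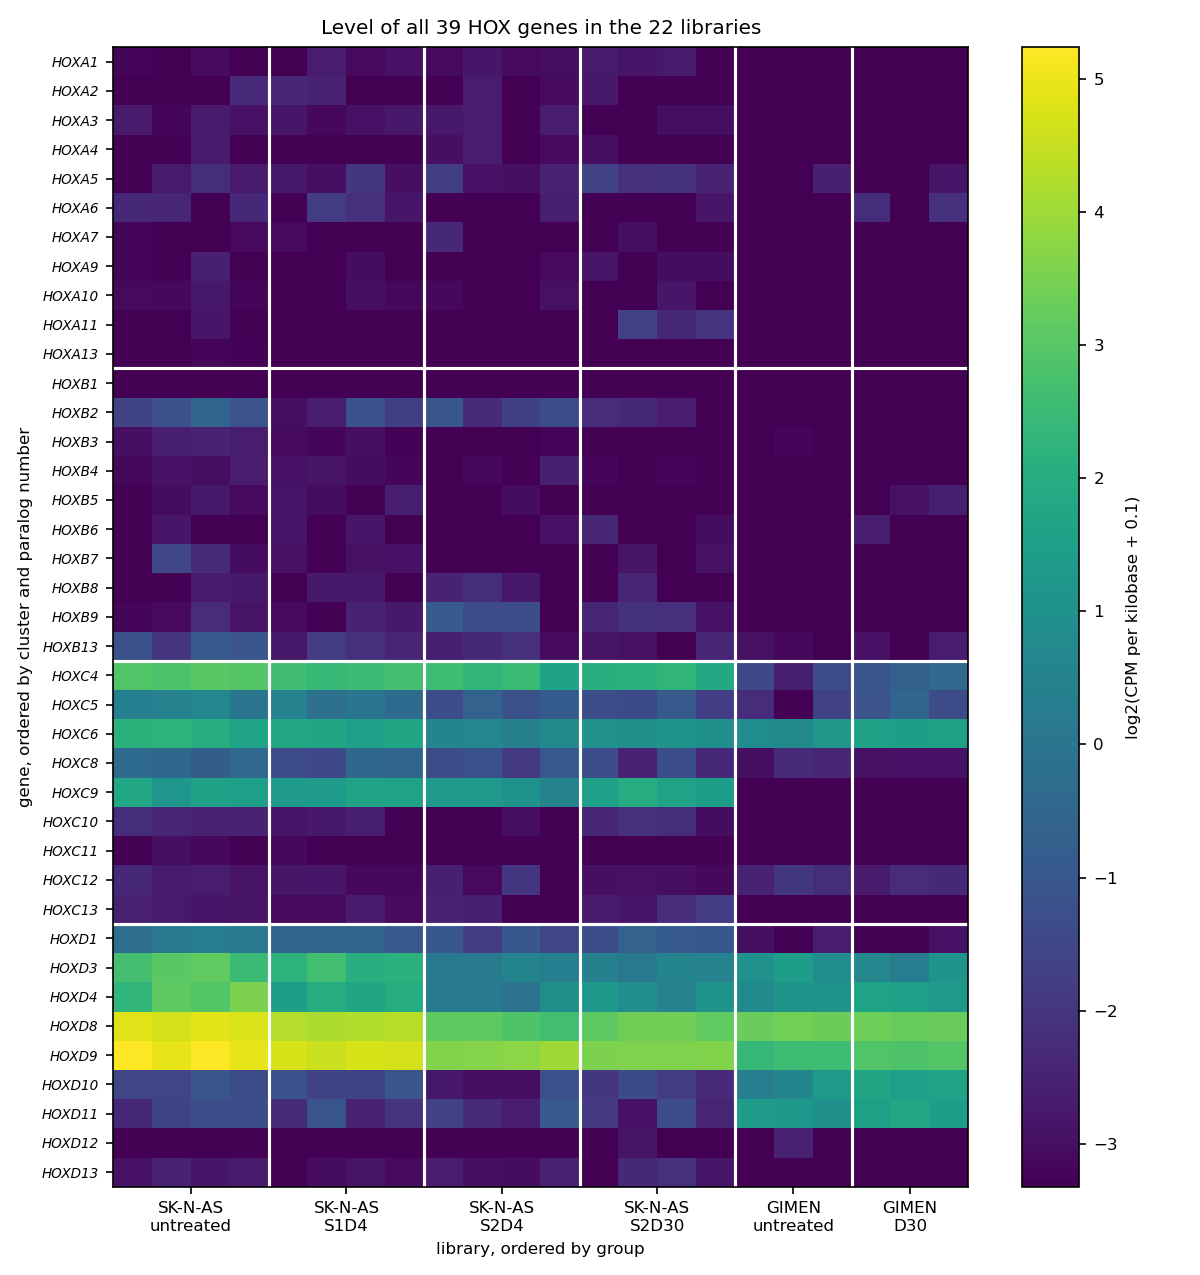
Level of the 39 HOX genes (rows, by cluster and paralog number) in the 22 libraries (columns, by group), as log2 of CPM per kilobase of exon plus 0.1. The bright rows are HOXC4 to HOXC9 and HOXD1 to HOXD9 in SK-N-AS and HOXC6 and HOXD3 to HOXD11 in GIMEN, and the HOXA and HOXB rows are dark in every group.

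The order of the genes was compared as CPM per kilobase of exon, from the GENCODE v29 gene models. In untreated SK-N-AS cells HOXD9 led with 34.1 ± 4.10 CPM per kilobase and HOXD8 followed with 27.6 ± 1.80, and their ranges did not overlap. HOXD4 (8.18), HOXC4 (7.50) and HOXD3 (7.28) came next, with ranges that overlapped between neighbours. HOXC6 (4.02) and HOXC9 (2.78) overlapped too, as did HOXC5 (1.23) and HOXD1 (0.959) at the end of the expressed set. In untreated GIMEN cells the top pair stood the other way round. There HOXD8 led with 10.0 ± 0.462 CPM per kilobase, and HOXD9 had 5.59 ± 0.421. The other 5 expressed GIMEN genes, HOXD11 (2.21), HOXD3 (2.09), HOXD4 (1.88), HOXC6 (1.84) and HOXD10 (1.64), each overlapped with the next. The ratio of HOXD9 to HOXD8 per kilobase was 1.23 ± 0.0748 in untreated SK-N-AS cells (1.15 to 1.30 over 4 libraries) and 0.558 ± 0.0365 in untreated GIMEN cells (0.524 to 0.597 over 3). The ratio ranges of the lines did not overlap, and this difference between lines does not depend on the exon lengths, whereas the order within a line does.

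The HOX levels sat at different positions along the clusters in the lines. Genes of paralog groups 10 to 13 held 1.20% ± 0.187 of the summed HOX level per kilobase in untreated SK-N-AS cells and 15.5% ± 0.701 in untreated GIMEN cells. Paralog group 9 held 38.2% ± 3.03 in SK-N-AS and 21.6% ± 0.492 in GIMEN. Groups 4 to 8 held 51.5% ± 2.85 and 54.7% ± 0.849, and groups 1 to 3 held 9.06% ± 1.53 and 8.18% ± 1.48, with ranges that overlapped between the lines. GIMEN thus carried the share at the tail end of the HOXD cluster, where HOXD10 (used in lumbar motor neurons and the limb) and HOXD11 (used in the forearm and kidney) lie. The HOXD cluster as a whole held 81.7% ± 0.445 in untreated SK-N-AS cells and 90.7% ± 2.04 in untreated GIMEN cells.

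**Figure D2:**
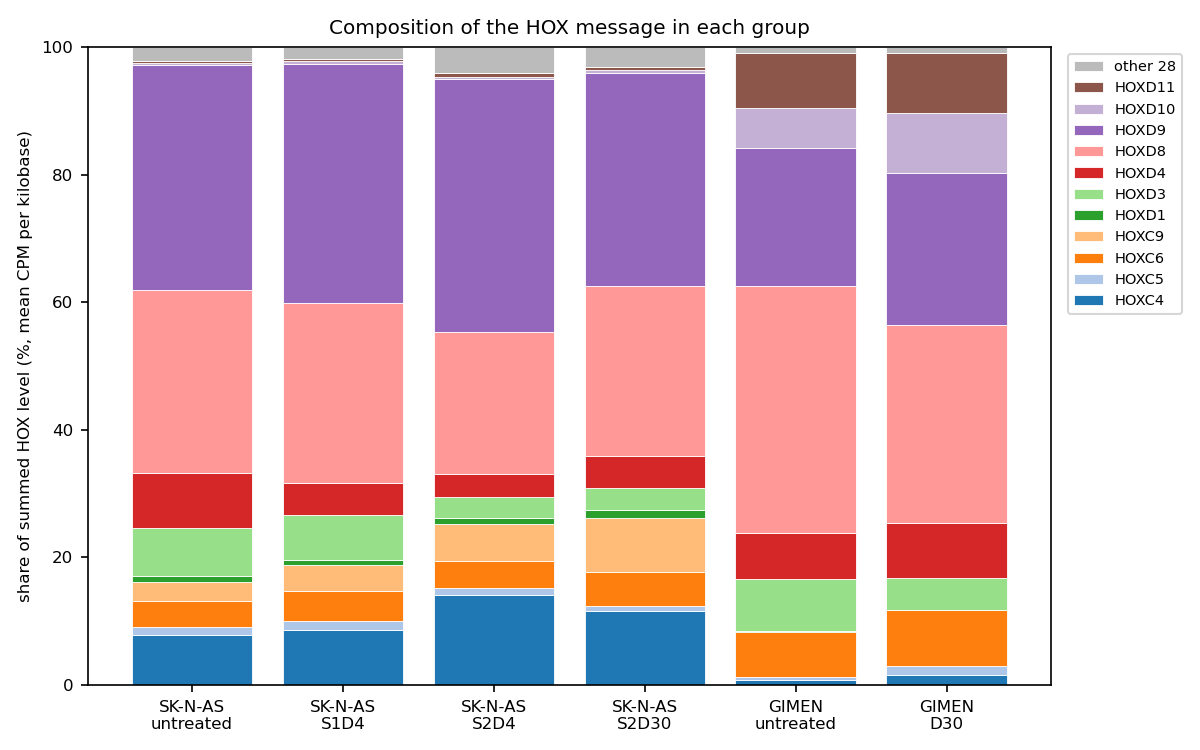
Share of the summed HOX level (percent, from group means of CPM per kilobase) held by each of 11 genes and by the other 28 together, in the 6 groups. HOXD8 and HOXD9 fill most of each bar, and the HOXD10 and HOXD11 blocks are wide only in the GIMEN bars.

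All 14 HOX genes that passed the filter on low counts differed between the untreated lines, in edgeR's quasi-likelihood test with Benjamini-Hochberg adjustment over 16246 genes. Of all genes tested, 73.9% were called, so differing between the lines was common. The direction was uneven, with 12 genes higher in SK-N-AS (background 38.6%) and 2, HOXD10 and HOXD11, higher in GIMEN (background 35.3%). The median log2 difference (SK-N-AS over GIMEN) of the 14 was 2.80, against 0.05 for all genes tested. A gene passes the filter more readily when it is high in the larger group, here the SK-N-AS libraries, so these 14 are not a picture of all 39. The remaining 25 did not pass.

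HOXC9, which marks thoracic levels where sympathetic preganglionic neurons arise, was present in one line and without a count in the other. Its level in the untreated SK-N-AS libraries was 5.17, 3.37, 4.53 and 4.24 CPM, and all 3 untreated GIMEN libraries had 0 counts. With 3 counts per library as the limit that 0 counts allow, HOXC9 was at least 27.5-fold higher in SK-N-AS. HOXC4, a gene of the neck and upper trunk, had 16.7, 15.8, 18.3 and 17.2 CPM in untreated SK-N-AS libraries and 0.619, 0.147 and 0.678 CPM in untreated GIMEN libraries. The groups were far apart (log2 difference 5.14 ± 0.28 SE, adjusted p = 3.65e-11 in edgeR). Its neighbour HOXC5, which shares the HOXC4 promoter window, followed it with 2.22 ± 0.443 CPM against 0.201 ± 0.198 CPM (log2 difference 3.46 ± 0.55, adjusted p = 2.33e-05 in edgeR). HOXC8, of brachial motor pools, was low in both lines, at 1.16 ± 0.179 CPM and 0.139 ± 0.0771 CPM (adjusted p = 6.97e-05 in edgeR). HOXC6, of brachial levels, was the HOXC gene expressed in both lines, with 14.4, 14.6, 13.3 and 9.92 CPM against 5.52, 5.21 and 7.23 CPM (log2 difference 1.11 ± 0.16, adjusted p = 1.02e-05 in edgeR). Every SK-N-AS library was above every GIMEN library for these 5 genes.

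Among the HOXD genes the direction turned between HOXD9 and HOXD10. HOXD1, which in mice takes part in sensory neuron wiring, had 1.89 ± 0.312 CPM in SK-N-AS and was at the floor in GIMEN, so it was at least 12-fold higher in SK-N-AS. HOXD3 had 16.1, 20.6, 21.9 and 14.04 CPM in untreated SK-N-AS libraries and 4.80, 6.48 and 4.35 CPM in untreated GIMEN libraries (log2 difference 1.78 ± 0.22, adjusted p = 1.16e-06 in edgeR). HOXD4, a retinoic acid responsive gene of the hindbrain border, had 7.05, 12.6, 11.1 and 17.2 CPM against 2.32, 3.04 and 2.88 CPM, with a wide spread in SK-N-AS (log2 difference 2.09 ± 0.26, adjusted p = 1.63e-06 in edgeR). HOXD8 had 75.7, 67.3, 77.4 and 70.1 CPM against 25.6, 27.8 and 25.7 CPM (log2 difference 1.45 ± 0.10, adjusted p = 4.34e-10 in edgeR). HOXD9 had 70.2, 57.0, 70.4 and 57.1 CPM against 9.54, 10.9 and 10.9 CPM, the larger gap of the pair (log2 difference 2.59 ± 0.12, adjusted p = 2.51e-12 in edgeR). None of these groups overlapped.

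HOXD10 had 0.495, 0.481, 0.763 and 0.580 CPM in untreated SK-N-AS libraries against 2.32, 2.85 and 4.63 CPM in untreated GIMEN libraries. HOXD11 had 0.148, 0.350, 0.477 and 0.488 CPM against 3.87, 3.49 and 2.83 CPM. Every GIMEN library was above every SK-N-AS library for both, with log2 differences of -2.52 ± 0.30 and -3.27 ± 0.39 (adjusted p = 8.95e-07 and 1.05e-06 in edgeR). HOXD12 and HOXD13, further towards the end of the cluster, reached at most 0.272 CPM in any library of either line. HOXB13, of the prostate and tail region, had 1.16, 0.525, 1.53 and 1.31 CPM in untreated SK-N-AS libraries, and was at least 7.20-fold above the floor at which GIMEN lay. HOXB2, a hindbrain gene, had 0.588 ± 0.227 CPM against 0 counts in GIMEN, at least 3.74-fold. The HOXB2 call was lost in 3 of 22 alternatives, each with 1 library left out.

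The exons of some members overlap those of other genes, and whether the authors' counting used the strand is not given in the sources used here. In GENCODE v29, 62.2% of the HOXD3 exon bases and 80.5% of those of HOXD4 also lie in exons of 1 same-strand gene, AC009336.2, and 33.9% of HOXC5, 17.8% of HOXC4 and 15.7% of HOXC6 lie in exons of neighbours on the same strand. HOXD10 and HOXD11 share 16.8% and 21.4% of their exon bases with each other, and 58.1% of HOXD1 lies opposite AC009336.3 or HAGLR. The level of these genes is therefore uncertain to the extent that shared reads were split or dropped. HOXD8, HOXD9 and HOXC8 overlap no exon of another gene.

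**Figure D3:**
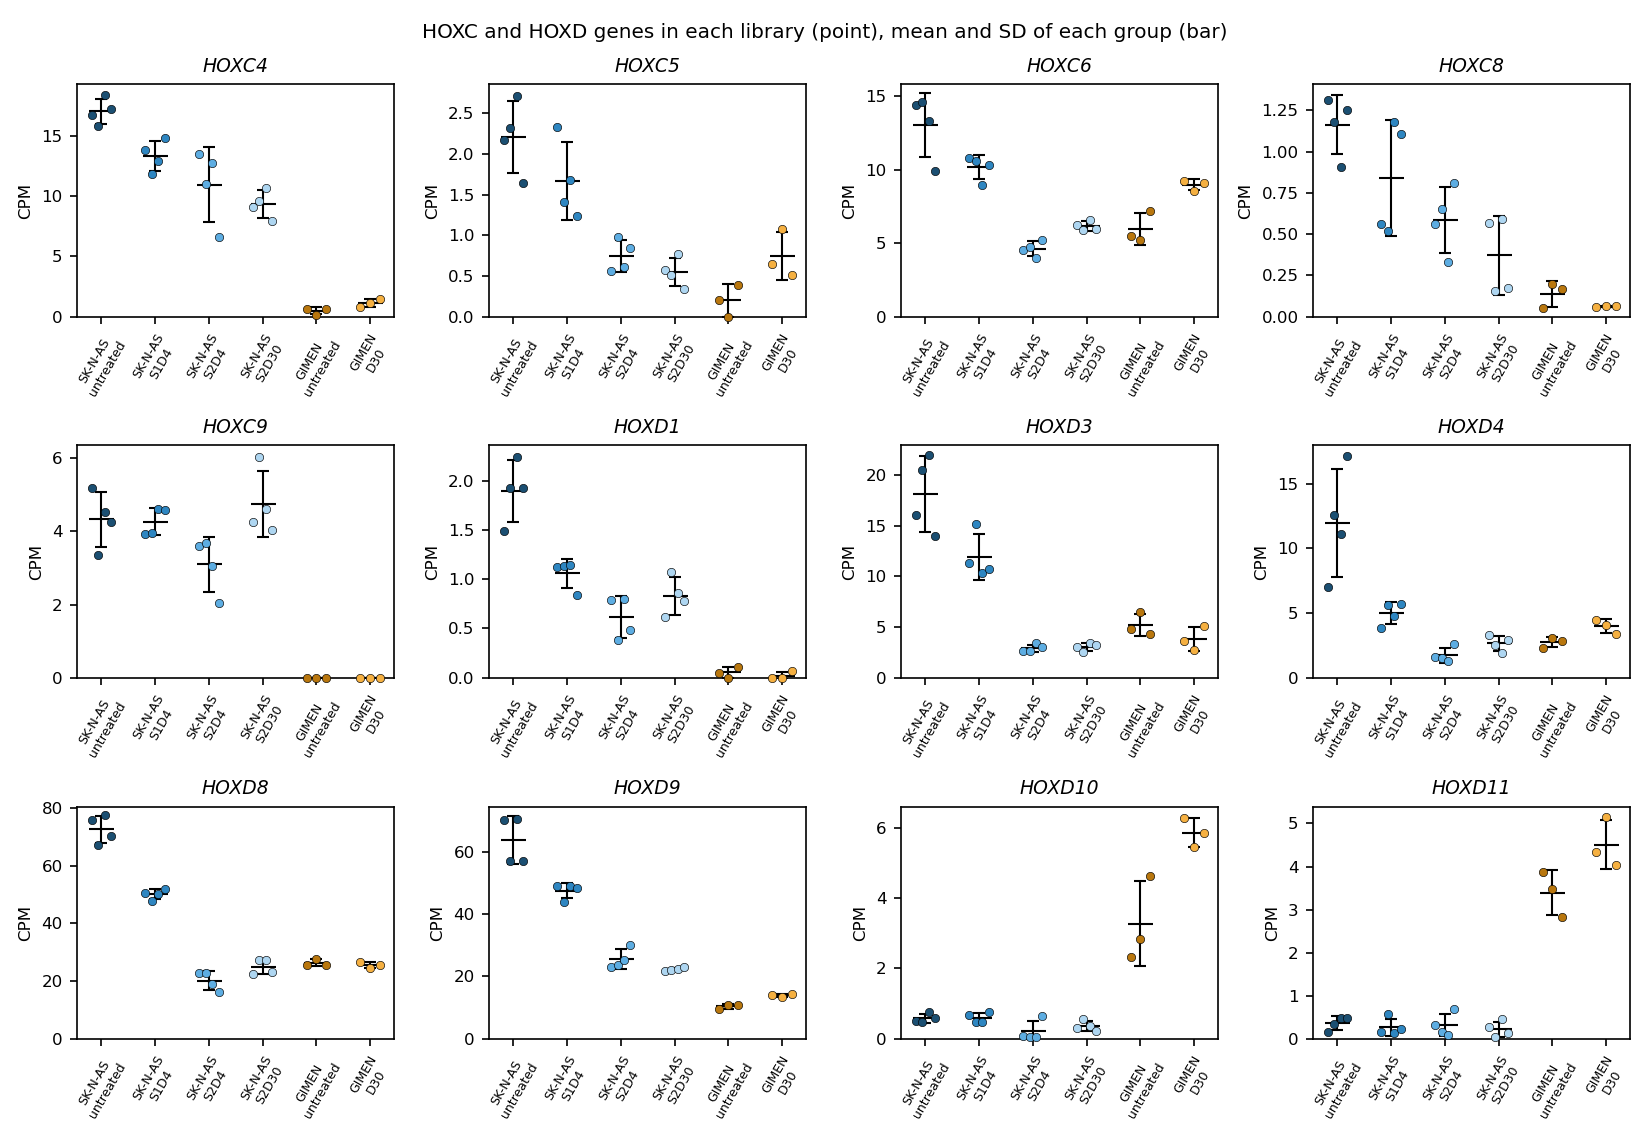
CPM of 12 HOXC and HOXD genes in each library (points) with mean and SD (bars), for the 4 SK-N-AS groups (n = 4 each) and the 2 GIMEN groups (n = 3 each), on linear axes that start at 0. Most SK-N-AS levels step down from untreated to S2D4, HOXC9 at S2D30 lies near its untreated level, and HOXD10 and HOXD11 are high only in GIMEN.

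In SK-N-AS cells the HOX genes fell in steps, while the set of expressed genes shrank only at its low end. The 39 genes summed to 211 ± 14.01 CPM in untreated cells, 149 ± 2.94 CPM in S1D4, 74.0 ± 2.70 CPM in S2D4 and 77.6 ± 4.33 CPM in S2D30 (SD, n = 4 each). The sum was thus 1.42-fold, 2.85-fold and 2.72-fold below untreated cells. HOXD1 left the expressed set in S1D4, through replicate 4 alone (0.843 CPM, against 1.12 to 1.14 CPM in the others), and HOXC5 left it in S2D4, leaving HOXC4, HOXC6, HOXC9, HOXD3, HOXD4, HOXD8 and HOXD9 in both stage 2 groups, and no gene joined. In bulk RNA, fewer cells with a message and less message per cell cannot be told apart.

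After stage 1 (S1D4 against untreated) 7 of the 14 HOX genes tested were lower and 0 were higher, in edgeR's quasi-likelihood test. Of all 15810 genes tested 40.1% were called, 22.4% as lower and 17.6% as higher. The median log2 fold change was -0.47 for the 14 against -0.01 for all genes. HOXD4 fell most among the expressed genes, to 3.86, 5.60, 4.77 and 5.68 CPM, a log2 fold change of -1.29 ± 0.26 (adjusted p = 0.000895 in edgeR). HOXD8 fell to 50.7, 47.8, 49.99 and 52.0 CPM, by 0.56 ± 0.11 on the log2 scale (adjusted p = 0.000518 in edgeR), and HOXD9 to 48.8, 44.0, 49.1 and 48.2 CPM, by 0.45 ± 0.10 (adjusted p = 0.00174 in edgeR). These 3 genes had no S1D4 library as high as any untreated one. HOXC4 had 13.8, 11.8, 12.9 and 14.8 CPM, all below the untreated libraries, and did not pass the test (-0.38 ± 0.17, adjusted p = 0.0925). HOXD1 fell to 1.06 ± 0.144 CPM (log2 fold change -0.85 ± 0.26, adjusted p = 0.0161 in edgeR). HOXD3, HOXC6 and HOXB13 also passed the test, with S1D4 ranges that overlapped those of untreated cells. The HOXC6 call was lost in 9 of 24 alternatives, among them without untreated replicate 1, 2 or 3 or S1D4 replicate 2, 3 or 4. The HOXB13 call was lost in 6, without untreated replicate 1, 3 or 4 or S1D4 replicate 1, 3 or 4. HOXC9 had 4.27 ± 0.368 CPM against 4.33 ± 0.749 CPM (log2 fold change -0.05 ± 0.20). Without the fourth S1D4 library 4 genes were called, and HOXB13, HOXC6 and HOXD1 (adjusted p = 0.0535 in edgeR) were not.

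Between stage 1 and stage 2 day 4 7 of the 14 fell and 0 rose, of which HOXC5 had not been called after stage 1 and the other 6 had, where 55.1% of all genes were called, 26.8% as lower and 28.3% as higher. HOXD3 fell from 11.3, 15.2, 10.3 and 10.8 CPM to 2.65, 2.66, 3.39 and 3.01 CPM, a log2 fold change of -2.03 ± 0.18 (adjusted p = 1.25e-07 in edgeR). HOXD8 fell to 22.7, 22.7, 19.0 and 16.2 CPM (-1.33 ± 0.11, adjusted p = 5.14e-08 in edgeR) and HOXD9 to 23.0, 23.6, 25.3 and 30.1 CPM (-0.91 ± 0.10, adjusted p = 1.36e-06 in edgeR). In the fourth S2D4 library HOXD8 was the lowest and HOXD9 the highest of the 4. HOXC6 fell to 4.52, 4.78, 4.00 and 5.25 CPM (-1.14 ± 0.14, adjusted p = 5.12e-06 in edgeR). HOXD4 (-1.5 ± 0.28, adjusted p = 0.000249 in edgeR), HOXC5 (-1.17 ± 0.29, adjusted p = 0.00309) and HOXD1 (-0.79 ± 0.28, adjusted p = 0.0259) made up the rest. The HOXD1 call was lost in 9 of 24 alternatives, among them the fold threshold. Of the 9, 5 left out 1 library (replicate 1, 2 or 3 of S1D4, or replicate 2 or 4 of S2D4). Apart from the fold threshold, the adjusted p in these ran from 0.0537 to 0.0825 in edgeR. HOXC4 had 10.9 ± 3.08 CPM against 13.3 ± 1.26 CPM in S1D4 and was not called (log2 fold change -0.30 ± 0.17).

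Against untreated cells, 11 of the 14 were lower at S2D4 and 11 at S2D30, and 0 were higher at either time. Of all genes tested 63.1% were called at S2D4, 32.2% as lower and 30.9% as higher, and 70.3% at S2D30, 36.5% as lower and 33.8% as higher. The median log2 fold changes of the 14 were -1.45 and -1.56, against -0.02 and -0.03 for all genes. Both comparisons share the untreated libraries. A gene that is low in stage 2 can pass the filter through its level in untreated cells. HOXB13 (1.13 CPM untreated and 0.134 CPM at S2D30) and HOXB2 (0.588 and 0.105 CPM) are examples. The counts and medians of the 14, at S1D4 too, therefore partly reflect which genes passed. Without the filter 38 members were tested, with 12 lower and 1 higher at each stage 2 time. At S2D30 the libraries had 22.4, 27.1, 27.3 and 23.2 CPM of HOXD8 and 21.6, 22.1, 22.4 and 23.0 CPM of HOXD9. HOXD3 stood at 3.07, 2.51, 3.40 and 3.21 CPM, and HOXD4 at 3.29, 2.51, 1.90 and 2.95 CPM after 1.58, 1.52, 1.27 and 2.59 CPM at S2D4. HOXC6 stood at 6.27, 5.94, 6.62 and 5.95 CPM, and HOXC4 at 9.13, 9.57, 10.7 and 7.95 CPM after 13.5, 10.96, 12.8 and 6.61 CPM at S2D4, where the fourth library was the lowest. None of these stage 2 libraries was as high as any untreated library for the same gene. HOXD3 (log2 fold change -2.66 ± 0.18 at S2D4 and -2.61 ± 0.18 at S2D30) and HOXD4 (-2.79 ± 0.28 and -2.20 ± 0.27) fell most among the genes expressed throughout. HOXD8 (-1.89 ± 0.11 and -1.57 ± 0.11), HOXD9 (-1.36 ± 0.10 and -1.55 ± 0.10) and HOXC6 (-1.53 ± 0.14 and -1.11 ± 0.14) fell less. HOXC4 fell least of those called at both times (-0.67 ± 0.17, adjusted p = 0.00282 in edgeR, and -0.90 ± 0.17, adjusted p = 0.000208). The adjusted p of the other genes named was at most 2.24e-06 at each time in edgeR. HOXB13, HOXC5, HOXC8 and HOXD1 also passed the test at both times, for example HOXB13 to 0.134 ± 0.126 CPM at S2D30 (-3.04 ± 0.63, adjusted p = 0.000408 in edgeR).

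HOXC9 was the one gene of the stage 2 expressed set not called at S2D30. At S2D30 the libraries had 4.26, 6.04, 4.62 and 4.04 CPM, and 3 of the 4 lay within the untreated range of 3.37 to 5.17 CPM, with the second above it (log2 fold change 0.09 ± 0.20, adjusted p = 0.707 in edgeR). At S2D4 they had 3.59, 3.69, 3.06 and 2.04 CPM and passed the test as lower (-0.53 ± 0.21, adjusted p = 0.0335 in edgeR), with overlapping ranges. The S2D4 call of HOXC9 was lost in 8 of 24 alternatives, 4 of which left out 1 library (untreated replicate 1 or 3, or S2D4 replicate 3 or 4). That of HOXC8 (adjusted p = 0.0398 in edgeR) was lost in 9, among them the replicate block and 6 that left out 1 library (untreated replicate 1, 2 or 4, or S2D4 replicate 1, 2 or 3). HOXB9 did not pass the filter in the fit of all 16 libraries but was called higher at S2D4 in 14 of the 24 alternatives, 12 of which left out 1 library. Without S2D4 replicate 4 HOXD10 was called lower. HOXD10 and HOXD11 stayed low in all SK-N-AS groups, at most 0.763 CPM in any library.

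From S2D4 to S2D30 the HOX genes changed little. HOXC9, HOXC6 and HOXD8 were higher (3 of 14, background 24.4%) and HOXB2 was lower (1 of 14, background 26.9%), where 51.3% of all genes were called. HOXC9 rose by a log2 fold change of 0.62 ± 0.21 (adjusted p = 0.0193 in edgeR), HOXC6 by 0.41 ± 0.14 (adjusted p = 0.0240) and HOXD8 by 0.31 ± 0.11 (adjusted p = 0.0240). HOXB2, a rare message, fell from 0.388 ± 0.188 CPM to 0.105 ± 0.0787 CPM (adjusted p = 0.0412). These calls rest on few libraries, and that of HOXB2 was lost in 11 of 24 alternatives, that of HOXD8 in 6, that of HOXC6 in 5 and that of HOXC9 in 3. Without the fourth S2D4 library 5 genes were called and 1 of the original 4 remained. Leaving out the third S2D4 library, or S2D30 replicate 2 or 3, left 1 call each, and leaving out the first S2D4 library left 2.

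**Figure D4:**
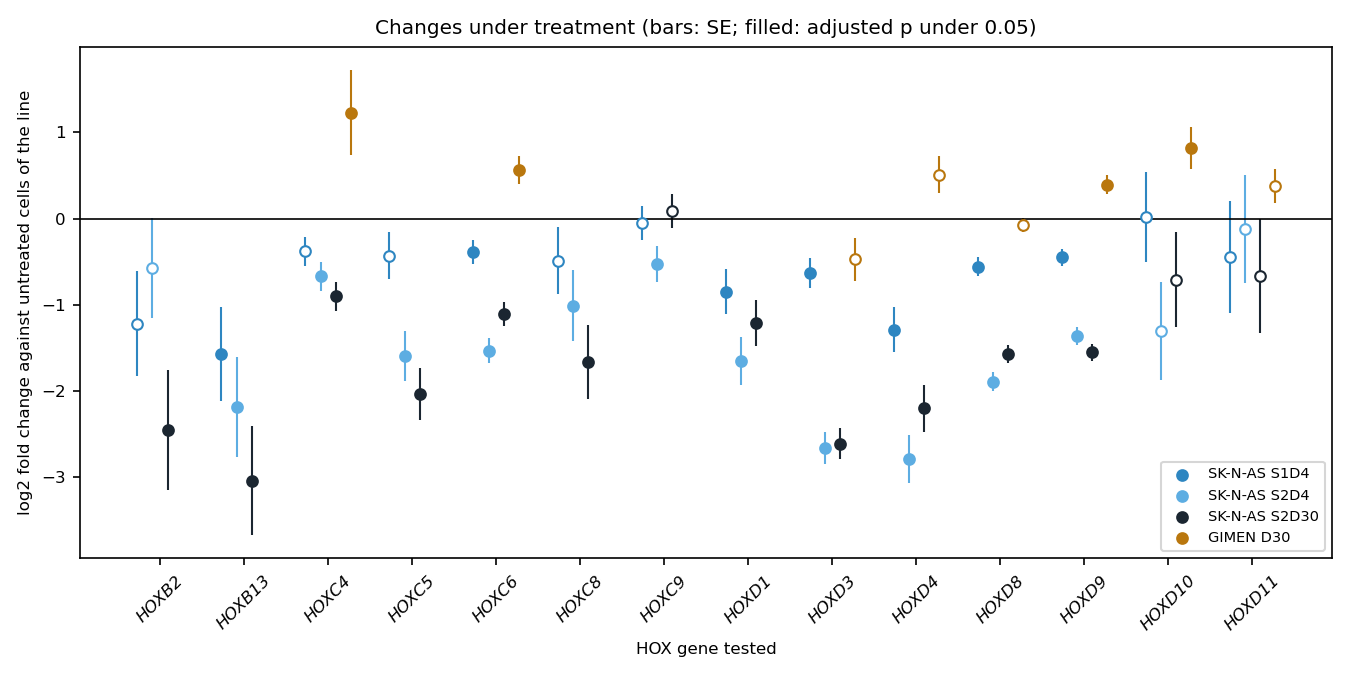
Log2 fold change against untreated cells of the same line (vertical axis, bars are SE) for the 14 HOX genes tested in SK-N-AS and the 8 tested in GIMEN. Filled points passed an adjusted p of 0.05. The called SK-N-AS points lie below 0 and the called GIMEN points above it, and HOXD10 and HOXD11 of SK-N-AS are all open.

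Although the sum fell, the top pair kept its places within SK-N-AS, while the order below it changed in stage 2. HOXD9 and HOXD8 per kilobase were first and second in all 4 groups, without overlap, and HOXC4 followed them in each treated group. HOXD3 and HOXD4, in the upper 5 before treatment, came last of the 7 expressed genes in both stage 2 groups, and HOXC9 moved to the fourth place. These places were not all separated, since HOXC6 overlapped HOXD4, and HOXD4 overlapped HOXD3, in both stage 2 groups, HOXC9 overlapped HOXC6 at S2D4, and HOXC4 overlapped HOXC9 at S2D30. The Spearman correlation of the levels per kilobase with those of untreated cells, over the 11 genes expressed in at least 1 group, was 0.973 for S1D4, 0.882 for S2D4 and 0.882 for S2D30. Across genes of one line this describes an order and is no test, and genes are not independent replicates. Of the 11, HOXC5, HOXD1, HOXD10 and HOXD11 ranked below the 7 genes expressed in stage 2 in every SK-N-AS group. High values are therefore partly built in by this choice of genes, and say little about the order among the 7. The HOXD share fell from 81.7% ± 0.445 to 79.4% ± 0.633, 70.9% ± 4.79 and 70.9% ± 1.94, and the HOXC share went from 17.0% ± 0.722 to 19.5% ± 0.755, 26.4% ± 4.31 and 27.3% ± 1.74. The ranges of the HOXD share in stage 2 (66.9% to 77.9% and 69.6% to 73.7%) lay below those of untreated cells (81.3% to 82.3%). With 1 S2D4 library left out in turn, the mean HOXD share at S2D4 was between 68.6% and 72.2%. The summed HOXD level was 3.10-fold and the HOXC level 1.77-fold below untreated cells at S2D30. The share of paralog groups 1 to 3 was 9.06% ± 1.53 in untreated cells and 4.97% ± 0.285 at S2D30, without overlap, whereas groups 4 to 8 held 51.5% ± 2.85 and 50.6% ± 1.24.

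Marker levels also changed in SK-N-AS, in both directions. The 10 adrenergic markers summed to between 1729 and 1918 CPM in untreated cells and between 213 and 262 CPM at S2D30, and all 10 were lower. The 10 mesenchymal markers summed to between 1529 and 2127 CPM and between 3016 and 3732 CPM, with 5 higher and 5 lower. The 6 leukocyte markers summed to between 160 and 208 CPM and between 4.45 and 6.95 CPM. The untreated sum was mostly PTPRC, which fell from 177 ± 20.9 CPM to 0.850 ± 0.360 CPM, whereas CD14 (1.34 to 3.09 CPM) and CSF1R (0.259 to 1.69 CPM) rose, and CD3E was at the floor in all 4 groups of the line. At S2D4 the adrenergic sum was between 616.5 and 921.4 CPM and the leukocyte sum between 25.2 and 27.8 CPM. Both sums were thus lower still at S2D30, whereas the HOX sum was 74.0 CPM at S2D4 and 77.6 CPM at S2D30. The part of the markers in the HOX changes was not tested.

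In GIMEN cells the HOX set was the same after 30 days, and the called changes were small rises. The 39 genes summed to 58.8 ± 3.10 CPM in untreated and 69.2 ± 2.18 CPM in D30 cells (SD, n = 3 each), without overlap between the groups (55.2 to 60.8 CPM and 66.7 to 70.6 CPM). Of 8 HOX genes tested 4 were higher and 0 lower, where 71.4% of all 13517 genes were called, 35.5% as higher and 36% as lower. The median log2 fold change was 0.45 for the 8 against 0.02 for all genes. HOXD10 rose from 2.32, 2.85 and 4.63 CPM to 6.28, 5.46 and 5.84 CPM (log2 fold change 0.82 ± 0.24, adjusted p = 0.00986 in edgeR). HOXC6 rose to 9.28, 8.57 and 9.12 CPM (0.56 ± 0.16, adjusted p = 0.00737 in edgeR) and HOXD9 to 13.98, 13.4 and 14.4 CPM (0.39 ± 0.11, adjusted p = 0.00801 in edgeR). Each D30 library was above each untreated library for these genes. HOXC4 went to 0.822, 1.14 and 1.48 CPM (1.23 ± 0.49, adjusted p = 0.0410 in edgeR). Its call was lost with DESeq2 (adjusted p = 0.1) and without untreated replicate 1 or 2 or D30 replicate 2 or 3, with adjusted p between 0.0580 and 0.156 and log2 fold changes between 0.78 and 1.46.

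Of the GIMEN genes not called, HOXD8 was the steadiest. It had 26.5, 24.6 and 25.4 CPM after treatment against 25.6, 27.8 and 25.7 CPM (log2 fold change -0.07 ± 0.08). HOXD11 had 4.35, 5.14 and 4.05 CPM, each above each untreated value (0.38 ± 0.20, adjusted p = 0.109 in edgeR), and HOXD4 had 4.46, 4.06 and 3.40 CPM (0.51 ± 0.21, adjusted p = 0.0523). HOXD3 had 3.64, 2.73 and 5.14 CPM against 4.80, 6.48 and 4.35 CPM (-0.47 ± 0.25, adjusted p = 0.109), which overlap. The share of paralog groups 10 to 13 went from 15.5% ± 0.701 to 19.2% ± 1.14, and the HOXD9 to HOXD8 ratio per kilobase from 0.558 ± 0.0365 to 0.767 ± 0.0274, both without overlap. HOXC9 stayed at 0 counts in all 3 D30 libraries. The Spearman correlation of the levels per kilobase before and after was 0.873 over the same 11 genes. In these cells the 10 mesenchymal markers summed to between 46570 and 48380 CPM before and between 21580 and 24380 CPM after treatment. Most of the sum was FN1 (mean 31490 CPM before and 18020 CPM after). Of 9 markers tested, 7 were lower and 1 was higher, and CD44 went from 693 to 1067 CPM. The part of these markers in the HOX changes was not tested.

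The 30-day change differed between the lines for 9 of the 14 HOX genes, each more negative in SK-N-AS, in the interaction test of edgeR over 16246 genes. Of all genes 49.7% had such a difference, 25.2% in this direction and 24.5% in the other. The difference in log2 fold change (SK-N-AS minus GIMEN) was -1.96 ± 0.16 for HOXD9 (adjusted p = 2.87e-08), -1.52 ± 0.13 for HOXD8 (8.75e-08), -1.69 ± 0.23 for HOXC6 (1.26e-05), -2.71 ± 0.37 for HOXD4 (1.35e-05) and -2.15 ± 0.32 for HOXD3 (3.18e-05). It was -2.15 ± 0.41 for HOXC4 (adjusted p = 0.000340 in edgeR), -3.93 ± 0.75 for HOXC5 (0.000337) and -1.54 ± 0.45 for HOXD10 (0.00926). HOXC5 did not pass the filter within GIMEN, where it had 4, 0 and 7 counts before and 11, 17 and 8 counts after treatment. HOXB13 (-3.95 ± 1.47, adjusted p = 0.0342) was at the floor in both GIMEN groups, and its call was lost with the replicate block and without GIMEN untreated replicate 2 or 3 or D30 replicate 1 or 3, with adjusted p from 0.0509 to 0.198. For HOXD11 the difference of -1.05 ± 0.61 was not called. Doses were 5 µM PP121 with 100 nM bufalin in SK-N-AS and 2.5 µM with 10 nM in GIMEN, so line and dose cannot be told apart.

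After 30 days the amounts of the lines were nearer but their sets still differed. The HOXD genes summed to 54.6 ± 2.47 CPM in SK-N-AS and 57.7 ± 2.01 CPM in GIMEN, with overlapping ranges, against a 3.29-fold gap before treatment. HOXD8 had 25.0 ± 2.59 CPM and 25.5 ± 0.964 CPM (log2 difference -0.07 ± 0.09, adjusted p = 0.499 in edgeR) and HOXD3 3.05 ± 0.384 CPM and 3.84 ± 1.22 CPM (-0.37 ± 0.24, adjusted p = 0.172). Both genes were called lower in SK-N-AS once GC content and exon length trends were removed. In all, 10 of 14 genes were called, where 72% of all genes were, with 6 higher in SK-N-AS (background 38%) and 4 lower (background 34%). HOXC9 remained at least 25.4-fold higher in SK-N-AS. HOXB2 was among the 6, although its call was lost in 12 of 22 alternatives, 9 of which left out 1 library. It had 0 to 4 counts in SK-N-AS libraries and 0 counts in GIMEN, a difference too near the floor for a fold. HOXC4 was higher there too (log2 difference 2.98 ± 0.25, adjusted p = 1.40e-08 in edgeR), as was HOXD9 (0.64 ± 0.11, adjusted p = 7.04e-05). HOXD10 (-4.06 ± 0.32, adjusted p = 5.95e-09) and HOXD11 (-4.32 ± 0.43, adjusted p = 1.02e-07) were higher in GIMEN. HOXC6, higher in SK-N-AS before, was now higher in GIMEN (-0.58 ± 0.16, adjusted p = 0.00434 in edgeR), although its call was lost with a replicate block (adjusted p = 0.137). The HOXD4 difference of -0.62 ± 0.27 (adjusted p = 0.0470 in edgeR) was lost in 15 of 22 alternatives, among them the fold threshold. In the others that lost it the adjusted p reached 0.146. Of the 15, 10 left out 1 library: GIMEN D30 replicate 1 or 2, any untreated GIMEN library, S2D30 replicate 2, 3 or 4, or untreated SK-N-AS replicate 2 or 3. Across the lines the Spearman correlation of levels per kilobase over the 11 genes was 0.482 before and 0.191 after treatment, below each value within a line. The 11 include HOXC4, HOXC5, HOXC9 and HOXD1, expressed in SK-N-AS only, and HOXD10 and HOXD11, expressed in GIMEN only. Lower values across than within lines are partly built in by this choice of genes, so they describe the levels and add no separate evidence.

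HOX proteins bind DNA together with TALE cofactors (MEIS, PBX and PKNOX proteins), and 9 such genes were followed. At S2D30, 8 of 9 were lower than in untreated SK-N-AS cells and 1 was higher, with a median log2 fold change of -0.66 against -0.03 for all genes, of which 36.5% were lower and 33.8% higher. MEIS1 fell from 87.3 to 31.8 CPM (log2 fold change -1.49 ± 0.11, adjusted p = 2.12e-09 in edgeR), MEIS2 from 110 to 40.9 CPM (-1.46 ± 0.08, adjusted p = 5.21e-11) and MEIS3 from 116 to 49.6 CPM (-1.26 ± 0.15, adjusted p = 1.18e-06). In GIMEN 1 of 7 tested was higher and 3 lower, where 71.4% of all genes were called. There MEIS2 fell from 29.4 to 16.8 CPM (-0.84 ± 0.11, adjusted p = 2.42e-05 in edgeR), and MEIS3 rose slightly from 24.5 to 29.3 CPM (0.23 ± 0.07, adjusted p = 0.0166).

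Polycomb proteins keep HOX genes silent through methylation of histone H3 at lysine 27, and trithorax proteins and demethylases act against them. Of 20 Polycomb genes, 8 were higher and 6 lower at S2D30, and 9 higher and 7 lower in GIMEN D30, with medians of 0.00 and 0.12. Of all genes 70.3% and 71.4% were called, so the counts at S2D30 are near the background. EZH2, the methyltransferase of dividing cells, fell from 79.3 to 11.96 CPM in SK-N-AS (log2 fold change -2.77 ± 0.14, adjusted p = 2.70e-11 in edgeR) and from 68.0 to 7.16 CPM in GIMEN (-3.27 ± 0.08, adjusted p = 5.33e-11). EZH1, its relative in resting cells, rose from 25.8 to 88.8 CPM and from 33.7 to 120 CPM (1.75 ± 0.09 and 1.80 ± 0.07). CBX7, a reader of the mark, rose from 6.67 to 59.2 CPM and from 5.75 to 59.0 CPM (3.12 ± 0.13 and 3.33 ± 0.09). Each of these 3 genes changed in the same direction in both lines. Of 15 trithorax and demethylase genes, 5 were higher and 4 lower at S2D30, and 9 higher and 5 lower in GIMEN D30, against the same 70.3% and 71.4% of all genes. KDM6B, a demethylase of the mark, rose from 71.8 to 233 CPM and from 41.2 to 118 CPM (1.67 ± 0.20, adjusted p = 1.31e-06, and 1.49 ± 0.09, adjusted p = 3.87e-08, in edgeR).

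Among 15 upstream regulators of HOX genes 14 were in the table, with 2 higher and 5 lower of 10 tested at S2D30, and 3 higher and 3 lower of 7 tested in GIMEN D30, where 70.3% and 71.4% of all genes were called. EGR2, the hindbrain factor that switches on HOXB2, was at the floor in untreated SK-N-AS cells and reached 1.47, 19.5 and 17.4 CPM in S1D4, S2D4 and S2D30, at least 158-fold higher at S2D30. HOXB2 itself had 0.588, 0.248, 0.388 and 0.105 CPM in the 4 groups and was called lower at S2D30 (log2 fold change -2.45 ± 0.70, adjusted p = 0.00502 in edgeR). HOXB3 had 7, 9, 10 and 12 counts in untreated SK-N-AS libraries and 0 in all 4 S2D30 libraries. RARG, a retinoic acid receptor, fell from 52.2 to 15.6 CPM in SK-N-AS (-1.78 ± 0.11, adjusted p = 4.83e-10 in edgeR), and CDX2 had 0 CPM in every group. Of 20 noncoding RNAs of the HOX clusters, 2 had rows in the table (PRAC1 and PRAC2) and neither passed the filter.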

How the data were processed

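Total RNA of 22 libraries was sequenced, and the authors deposited whole-number read counts per gene in 1 table. The aligner, genome build, annotation and strand setting are not given in the sources used here. Counts were used as deposited. edgeR 4.0.16 in R 4.3.3 fitted quasi-likelihood models with TMM factors to genes passing filterByExpr (minimum count 10, minimum total 15), in 3 fits: 16 SK-N-AS libraries, 6 GIMEN libraries, and 14 untreated and 30-day libraries of both lines. They gave 9 comparisons, with Benjamini-Hochberg adjustment over all genes of a fit and a threshold of 0.05. The scripts were tested on simulated data. Values per library are given for HOX genes with a mean of at least 5 CPM in a group, and statistics first for up to 8 called genes per comparison with at least 1 CPM and no overlap, by size of change. Other genes named were chosen after their values were seen. From each of the context lists up to 4 genes per line are named by size of change. The members and lists were chosen with earlier results of these data known. Alternatives were other scaling factors, DESeq2 1.42.0, no filter, a replicate block, compared groups alone, a fold threshold, each library left out and, chosen after seeing the data, removal of GC content and exon length trends. No 2 replicates held identical values. Floors cover counting error only, whereas SD and SE also hold the spread between libraries. Some context genes are not reported here.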

Additional observations from a re-analysis of the deposited data

Results flagged for a closer look

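In 56 sets of 4 libraries (14 HOX genes in 4 SK-N-AS groups), 3 held a library far from the others, where chance gives about 1 in 20. HOXD1 in the fourth S1D4 library was 0.843 CPM, against 1.12 to 1.14 CPM in the others. HOXD9 in the second S1D4 library was 44.0 CPM, against 48.2 to 49.1 CPM. HOXD10 in the fourth S2D4 library was 0.648 CPM, against 0.0471 to 0.0931 CPM.

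The 30-day change differed between the lines for 9 genes in edgeR's interaction test. The difference in log2 fold change (SK-N-AS minus GIMEN) was -3.95 for HOXB13, -3.93 for HOXC5, -2.71 for HOXD4, -2.15 for HOXC4, -2.15 for HOXD3, -1.96 for HOXD9, -1.69 for HOXC6, -1.54 for HOXD10 and -1.52 for HOXD8.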

How the results depend on the processing

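None of the 56 log2 fold changes chosen by the size rule changed direction under the alternatives run. Counts of calls were compared by size only, and the direction of other genes named was not checked in this way. Of 1190 alternative values of the 56 fold changes chosen by the size rule (called, at least 1 CPM, no overlap), 1150 stayed on their side of the threshold and 40, from 8 fold changes, lost the call. The fold threshold is not counted among these values. Calls outside that rule were lost too: HOXC8 in 9 and HOXC9 in 8 of 24 alternatives at S2D4, HOXC6 in 9 and HOXB13 in 6 at S1D4, and HOXB2 in 11 and HOXD8 in 6 from S2D4 to S2D30. Between the lines the HOXB2 call was lost in 12 of 22 alternatives at 30 days and in 3 of 22 before treatment. Counting only log2 changes of size 1 or more left 2 HOX genes in S1D4 against untreated, 1 in S2D30 against S2D4 and 1 in GIMEN. Fitting the compared groups alone left 2 in S2D30 against S2D4, and without the filter 17 were called between the lines at 30 days. Leaving out 1 library gave 4 to 8 calls in S1D4 against untreated and 1 to 5 in S2D30 against S2D4. Without division by exon length the HOXD share was 80.4% for SK-N-AS before treatment, 78.4% at S1D4, 87.6% for GIMEN before treatment and 83.3% after it. With GC content and exon length trends removed, 6 genes were called higher and 6 lower in SK-N-AS than in GIMEN at 30 days, against 6 and 4. The genes gained were HOXD3 and HOXD8. The numbers were not taken to pair libraries, because no pair of groups had every correlation of same-numbered deviations from the group means over 0.1. Between untreated and S1D4, 3 of 4 were over it (0.389, 0.349 and 0.362) and 1 was 0.0368, and the others ran from -0.117 to 0.179. With the replicate number as a block, 7, 11, 11, 7 and 4 genes were called in the 5 SK-N-AS comparisons, 4 in GIMEN, 14 and 7 between the lines before and after treatment, and 8 in the interaction. Genes with a few counts per library are limited by depth.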

Other observations

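Several rare HOX messages stood out by library, and these genes were chosen after their values were seen. HOXB9 had 25, 14, 17 and 0 counts in the S2D4 libraries and at most 7 in any other library of SK-N-AS. HOXA11 had 0, 10, 5 and 8 counts in the S2D30 libraries and at most 2 in any other library. HOXC12 had 5, 11 and 7 counts in untreated GIMEN and 3, 6 and 5 in GIMEN D30, while HOXC10, HOXC11 and HOXC13 had 0 counts in all 6 GIMEN libraries.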
